A study of Mus musculus with 12 samples.

Results

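Acute phase and complement genes encode proteins that inflamed tissue releases or deploys within the innate response, and 6 of them are described here in macrophages: Saa3, Lcn2, C3, Cfb, Cp and Serpinb2. They were chosen by gene name, with earlier results of these data known. All 6 were among the 11762 genes of the deposited table and all 6 were among the 11745 genes tested. The cells were J774A.1, a macrophage-like line of BALB/c mouse origin, and poly(A) RNA was sequenced from 4 groups of 3 biological replicates. Control cells were mock-treated in the series text and carry the tag "untreated" in the labels. MP cells received microparticles, LPS cells received lipopolysaccharide, and LPS+MP cells received both. LPS is a bacterial cell envelope glycolipid that macrophages sense through Toll-like receptor 4. Not given in the sources used here are the particles' composition and dose and the times of exposure. All 4 groups are 1 transformed cell line, which limits them as a model of macrophages in tissue.

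The acute phase response is the change in secreted proteins that follows infection or injury. It is driven by interleukin 1, interleukin 6 and tumor necrosis factor. The liver makes most of these proteins, and macrophages make some locally. Saa3 encodes a serum amyloid A protein that in mice is made mainly outside the liver. Lcn2 encodes lipocalin 2, which binds bacterial siderophores and so withholds iron. Cp encodes ceruloplasmin, a copper-containing ferroxidase. C3 encodes the protein on which all complement pathways converge, and Cfb encodes factor B, the protease of the alternative pathway convertase that cleaves C3. Serpinb2 encodes a serine protease inhibitor of urokinase and tissue plasminogen activator.

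Levels are in CPM, a gene's reads scaled so that every library has the same total, and are given as mean ± SD over n = 3 libraries. A log2 fold change ± SE is on the log2(CPM + 1) scale, which understates the change of genes near 0. The words rose and fell are kept for genes with an adjusted p under 0.05 (limma, Benjamini-Hochberg over all genes tested) whose change was also over 1 on that scale, which is 2-fold. The SE and p-values rest on 1 spread per gene, pooled over the biological replicates of all 4 groups and drawn toward a trend over all genes. They do not measure the spread of the compared groups alone. The values are bulk measurements, so fewer cells expressing a gene and less RNA per cell cannot be told apart.

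The 12 columns summed to between 998867 and 999273. LPS replicate 2 stood apart: 339 of its genes lay over 1 (log2) away from the average of its group mates, while the other 11 libraries had 1 to 29 such genes. Results that rest on LPS are therefore also given without it where it changed a call. Of the macrophage markers 12 of 12 were in the table, with summed levels of 6209 to 6872 CPM in control, 6414 to 6753 in MP, 8022 to 9057 in LPS and 6289 to 6490 in LPS+MP. The sum does not identify the line, and single markers changed within it. With LPS 4 of the 12 rose and 1 fell, where 8.3% and 8.05% of all genes did.

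The sequence before the start site is shown for 3 members, because C3 rose with MP alone while Saa3 and Serpinb2 did not pass that test. Lcn2 and Cp also rose with MP alone, and their sequences are described below without being shown. A link between these sequences and the response was not tested. Sequences are from RefSeq (GRCm38.p6), 250 bases on the gene's strand, 5′ to 3′, ending at the base before the start site. At these 3 genes the RefSeq start was also the transcript start in the deposited table. Capitals mark matches on either strand to 4 motifs: kappaB (GGGA and CC with 4 bases between), C/EBP (TTNNGNAAT), STAT (TTCNNNGAA) and the core of the interferon-stimulated response element, ISRE (GAAA and GAAA with 2 bases between).
Saa3, chr7:46715677-46715926, minus strand: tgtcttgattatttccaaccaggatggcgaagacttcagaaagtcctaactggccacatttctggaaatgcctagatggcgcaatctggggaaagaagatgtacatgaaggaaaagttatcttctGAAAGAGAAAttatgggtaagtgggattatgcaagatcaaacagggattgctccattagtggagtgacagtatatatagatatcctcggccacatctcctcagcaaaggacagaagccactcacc
C3, chr17:57228137-57228386, minus strand: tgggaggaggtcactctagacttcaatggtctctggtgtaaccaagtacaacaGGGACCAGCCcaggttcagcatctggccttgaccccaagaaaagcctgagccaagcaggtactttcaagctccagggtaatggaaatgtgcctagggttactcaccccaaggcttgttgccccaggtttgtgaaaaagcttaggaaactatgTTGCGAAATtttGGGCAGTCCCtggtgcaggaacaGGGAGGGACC
Serpinb2, chr1:107511173-107511422, plus strand: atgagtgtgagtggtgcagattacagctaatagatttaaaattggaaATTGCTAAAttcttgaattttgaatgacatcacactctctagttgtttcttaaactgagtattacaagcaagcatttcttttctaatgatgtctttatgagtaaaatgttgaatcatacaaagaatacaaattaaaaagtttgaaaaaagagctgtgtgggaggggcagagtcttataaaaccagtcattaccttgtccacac

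C3 held 3 kappaB matches, starting 197, 33 and 10 bases before the start site, and 1 C/EBP match starting 45 bases before it. Saa3 held 1 ISRE core match, starting 125 bases before its start, and the Serpinb2 window shown held 1 C/EBP match, starting 203 bases before. RefSeq lists a further Serpinb2 start 87 bases from this one, whose window held a C/EBP match starting 19 bases before it and a STAT match, read on both strands, starting 77 bases before it. In the 3 windows shown, no match overlapped another. Over the 32851 RefSeq starts, a window of the same 250 bases held a kappaB match in 17.6%, a C/EBP match in 10.2%, a STAT match in 7.02% and an ISRE core match in 2.98%. The windows of Lcn2 and of the first Cp start held no match, which says only that these letters were not there. The window of a further Cp start, 195 bases from the first, held 1 kappaB match, starting 146 bases before it. Cfb had no entry.

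Saa3 showed the largest rise of all genes tested with LPS. Its values were 0.0186, 0.000421 and 0.0828 CPM in control replicates 1 to 3, and 0.0246, 0.122 and 0.402 in MP. In LPS they were 3307, 2444 and 2882 CPM, and in LPS+MP 1579, 1790 and 1608. Control and MP libraries overlapped near 0, the LPS libraries were the highest, and every LPS+MP library lay below every LPS library. The change against control was 11.43 ± 0.12 with LPS (adjusted p = 1.41e-18) and 10.65 ± 0.12 with LPS+MP (adjusted p = 2.56e-18), rank 1 of the 11745 genes in each case. With MP alone Saa3 did not pass (0.18 ± 0.12, adjusted p = 0.249). LPS+MP cells held 57.7% of the Saa3 level of LPS cells. That difference was -0.79 ± 0.12 with an adjusted p of 0.00013, and it did not reach the size threshold. It passed with quantile normalization (-1.04) and stood at -0.90 without LPS replicate 2, and with a pseudocount of 0.1 its adjusted p was 0.0983.

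Lcn2 responded to LPS almost as strongly, and also to MP alone. Its values were 0.206, 0.131 and 0.174 CPM in control and 4.38, 4.54 and 2.95 in MP. They were 1489, 1317 and 1454 CPM in LPS and 1778, 1583 and 1695 in LPS+MP. The 4 groups did not overlap, and they stood in the order control, MP, LPS, LPS+MP. With MP alone Lcn2 rose by 2.07 ± 0.11 (adjusted p = 2.89e-09), the 18th largest rise of all genes, and the ratio of mean CPM was 23.2. With LPS it rose by 10.24 ± 0.11 (adjusted p = 1.41e-18), the 3rd largest rise. The step from LPS to LPS+MP, 1420 ± 90.7 to 1685 ± 98.0 CPM, did not pass (0.25 ± 0.11, adjusted p = 0.0918), so these neighbours in the order did not differ beyond the test.

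Cp followed another course: it rose with either treatment and was lower with both than with LPS alone. It was listed at 0.487, 0.393 and 0.588 CPM in control and at 4.63, 4.10 and 4.09 in MP. LPS libraries held 186, 241 and 201 CPM, and LPS+MP libraries 100, 125 and 110. Again no 2 groups overlapped, with the order control, MP, LPS+MP, LPS. Cp rose by 1.82 ± 0.12 with MP (adjusted p = 2.12e-08; ratio of mean CPM 8.73) and by 7.14 ± 0.12 with LPS (adjusted p = 2.92e-16), the 12th largest rise with LPS. In LPS+MP cells it stood at 53.4% of its level in LPS cells (-0.90 ± 0.12, adjusted p = 2.93e-05), which is short of the size threshold. That difference ranged from -0.98 to -0.79 when any 1 of the compared libraries was left out.

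**Figure D1:**
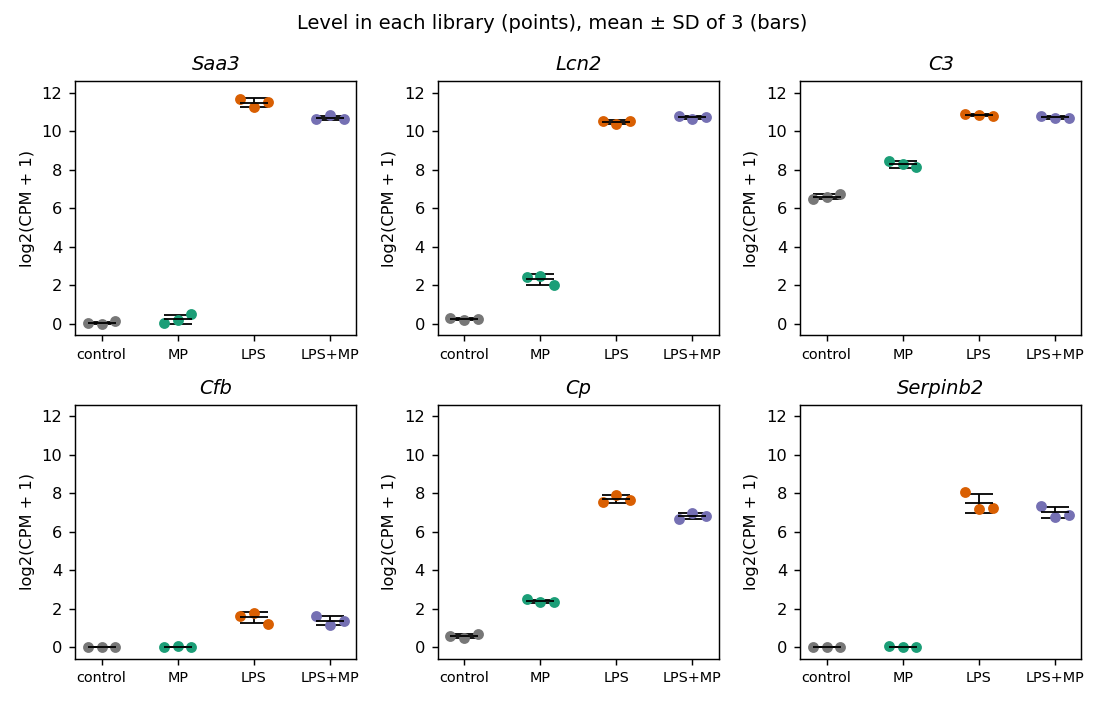
Level of each of the 6 genes in each library, as log2(CPM + 1), by group. Points are single libraries and bars the mean ± SD of 3. All 6 genes rose with LPS and with LPS+MP against control, where 8.3% and 8.52% of all genes did. Lcn2, C3 and Cp also rose with MP alone, where 1.82% of all genes did.

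Of the complement members, C3 was the one with a substantial level in untreated cells. Control libraries held 87.6, 94.8 and 105 CPM and MP libraries 349, 308 and 274. LPS libraries held 1929, 1796 and 1746 CPM and LPS+MP libraries 1769, 1619 and 1631. MP libraries lay between the control and LPS libraries without overlap, while LPS and LPS+MP libraries overlapped. C3 rose 3.24-fold in mean CPM with MP (1.68 ± 0.09, adjusted p = 3.45e-09). With LPS the ratio was 19.0 (4.24 ± 0.09, adjusted p = 6.04e-15). Microparticles added to LPS left it at 1673 ± 83.0 against 1824 ± 94.6 CPM, a difference that did not pass (-0.12 ± 0.09, adjusted p = 0.309).

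Cfb was rare in every group. It was listed at 0 in the 3 control libraries, and in MP at 0, 0.0246 and below 0.001 CPM. LPS libraries held 2.14, 2.48 and 1.34 CPM and LPS+MP libraries 2.05, 1.2 and 1.56. All libraries with LPS lay above all libraries without it, and LPS and LPS+MP overlapped. Cfb rose with LPS by 1.56 ± 0.18 (adjusted p = 2.46e-06) and in LPS+MP against control by 1.37 ± 0.18 (adjusted p = 8.06e-06), and no ratio is given against control values of 0. LPS+MP and LPS did not differ by the test (-0.19 ± 0.18, adjusted p = 0.445, and 0.07 with quantile normalization). The listed Cfb transcript (chromosome 17, 34856374 to 34862518 in the table) has other coordinates in GENCODE M21. There, 82.1% of its exon bases also lie in exons of Gm20547, a gene on the same strand. The Cfb level is therefore uncertain, the handling of shared reads being not given in the sources used here.

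Serpinb2 varied most among the LPS libraries, relative to its mean. It was listed at 0 in all control libraries and at 0.0248, 0 and below 0.001 CPM in MP. LPS libraries held 264, 142 and 147 CPM and LPS+MP libraries 162, 109 and 117. No library without LPS reached 0.1 CPM, and the LPS and LPS+MP libraries overlapped. Serpinb2 rose with LPS by 7.47 ± 0.20 (adjusted p = 7.92e-14), the 11th largest rise, and was also 11th in LPS+MP against control (7.0 ± 0.20, adjusted p = 8.51e-14). LPS+MP cells held 70.2% of the LPS level (-0.47 ± 0.20, adjusted p = 0.0799). The difference was -0.18 without LPS replicate 1, the library with 264 CPM, and -0.63 (adjusted p = 0.0111) without LPS replicate 2.

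Counted over the 6 genes, 3 rose with MP alone (Lcn2, C3 and Cp), against 1.82% of all genes tested. All 6 rose with LPS and with LPS+MP against control, against 8.3% and 8.52% of all genes, and both comparisons use the same control libraries. The 6 were chosen with earlier results of these data known, so the shares are a description and not a test. Saa3, Cfb and Serpinb2 passed the filter of 1 CPM only through libraries with LPS. The 6 also rose in LPS and in LPS+MP against MP, where 6.64% and 5.71% of all genes rose. Their median log2 fold change was 0.93 with MP, 7.30 with LPS and 6.62 with LPS+MP against control, beside 0.02, -0.08 and -0.10 over all genes. In LPS+MP against LPS, 0 of the 6 were called by limma, against 4.52% of all genes in either direction. Of the 6, 4 were at an unadjusted p under 0.05, and 2 (Saa3 and Cp, both lower) at an adjusted p under 0.05 whatever their size, against 35.2% of all genes. The median of the 6 there was -0.33, beside -0.05 over all genes.

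The order of abundance also differed between treatments. Lengths are those of the listed transcript in GENCODE M21, where its coordinates differ from the deposited ones for Saa3, Cfb, Cp and Serpinb2. The values per kilobase of these genes are therefore approximate. Mean levels in LPS cells were 5185 CPM per kb for Saa3, 1552 for Lcn2, 355 for C3, 93.5 for Serpinb2, 45.9 for Cp and 0.726 for Cfb. In LPS+MP cells Saa3 stood at 2989 and Lcn2 at 1842 CPM per kb, so the gap between the 2 most abundant members narrowed. In MP cells C3 led at 60.5 CPM per kb, followed by Lcn2 at 4.33 and Cp at 0.936. Expressed as a share of its level with LPS, the mean level with MP alone was 17.0% for C3, 2.04% for Cp, 0.279% for Lcn2 and 0.00636% for Saa3.

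**Figure D2:**
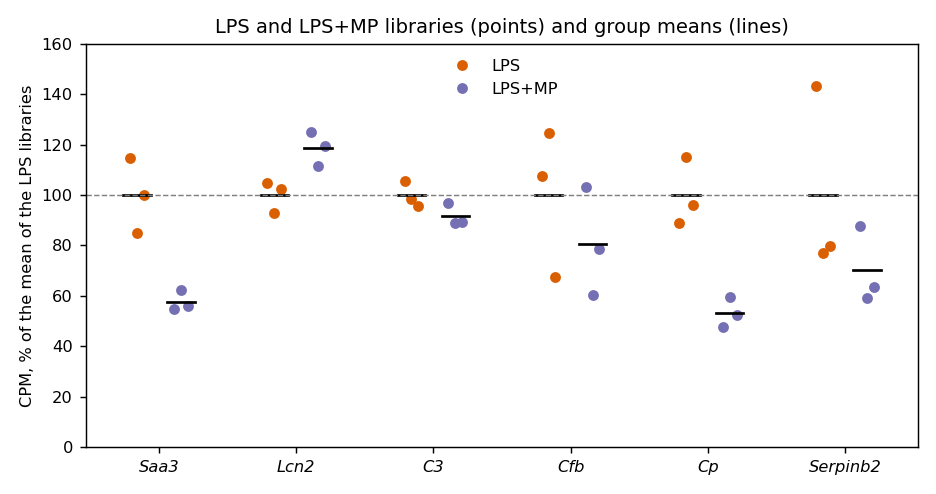
CPM of each LPS and LPS+MP library as a percent of the mean of the 3 LPS libraries. Points are libraries and lines group means. Saa3 and Cp sit at 57.7% and 53.4% in LPS+MP and Lcn2 at 119%. In this comparison 0 of the 6 genes were called, against 4.52% of all genes in either direction.

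Whether microparticles had the same effect with and without LPS was tested by the interaction, the difference of LPS+MP from LPS minus the difference of MP from control. It was negative and called for Cp (-2.72 ± 0.17, adjusted p = 1.03e-07), Lcn2 (-1.82 ± 0.15, adjusted p = 1.46e-06) and C3 (-1.81 ± 0.13, adjusted p = 3.95e-07), where 3.68% of all genes were called in that direction. These are the genes that rose with MP alone, and that rise is itself a term subtracted in the interaction. Saa3 (-0.97 ± 0.17, adjusted p = 0.000844) fell just short of the size threshold and passed it in 6 alternatives, among them without LPS replicate 2 (-1.08). Cfb (-0.20 ± 0.26) and Serpinb2 (-0.48 ± 0.28) did not pass. The result depends on the scale. On the CPM scale, the sum of the LPS and MP levels minus control was 2039 for C3, and LPS+MP cells held 82.1% of it. The same share was 52.5% for Cp and 57.7% for Saa3 but 118% for Lcn2, which was thus below the sum of effects on the log scale and above it on the linear scale. These shares were not tested.

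**Figure D3:**
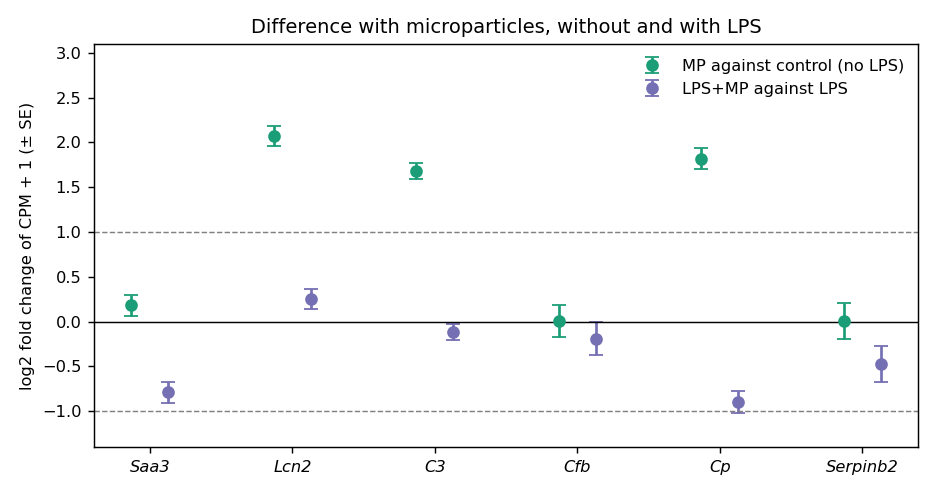
Log2 fold change of CPM + 1 (± SE) with microparticles, in cells without LPS (MP against control) and with it (LPS+MP against LPS), for each gene. Dashed lines mark the size threshold of 1. Lcn2, C3 and Cp exceed it only without LPS, at 2.07, 1.68 and 1.82, a difference tested by the interaction.

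The other complement components changed by less than C3 with MP or LPS alone. Of 28 on the list 15 were tested, and 2 rose with MP, C3 and Masp2, a protease of the lectin pathway, at 1.04 ± 0.17 (adjusted p = 0.00022). Masp2 lost the call with quantile normalization (0.98), median-ratio scaling (1.00), and without control replicate 1 (0.94) or MP replicate 3 (0.99). With LPS 3 rose, C3, Cfb and C1s, which encodes a protease of the classical pathway (0.286 ± 0.233 to 5.63 ± 0.532 CPM; 2.38 ± 0.22, adjusted p = 1.9e-07). Fcna, a ficolin gene of the lectin pathway, fell by 1.00 ± 0.12 (adjusted p = 2.82e-06), a call lost in 5 of 14 alternatives, among them without LPS replicate 2 (-0.89), control replicate 1 (-0.97) or control replicate 3 (-0.99). Over all genes 1.82% rose with MP, and 8.3% rose and 8.05% fell with LPS. The median of the 15 was 0.06 with MP and 0.33 with LPS.

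With microparticles added to LPS, 2 of the 15 components fell and 0 rose, where 3.89% and 0.63% of all genes did. C1s fell to 1.06 ± 0.543 CPM (-1.73 ± 0.22, adjusted p = 2.57e-05). Cfp, which encodes properdin, the stabilizer of the alternative pathway convertase, stood at 358 ± 35.8 CPM in LPS and 177 ± 5.33 in LPS+MP (-1.01 ± 0.10, adjusted p = 1.77e-06). Cfp lost the call without LPS replicate 1 (-0.95) or 3 (-0.99), without LPS+MP replicate 1 (-0.98), and with median-ratio scaling (-0.98). The median of the list was -0.52.

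Among 8 complement receptor genes tested, 0 rose or fell with MP, where 1.82% of all genes rose and 1.85% fell. Of the 8, 7 were at an unadjusted and 7 at an adjusted p under 0.05 (limma) whatever their size. By adjusted p, so were 4570 of the 11745 genes tested. Of those 7 receptor genes, Itgax was higher (0.47 ± 0.17) and the others were lower, with a median of -0.57 over the 8. C3ar1, the receptor of the C3 fragment C3a, stood at 744 ± 42.6 CPM in control and 553 ± 24.3 in MP (-0.43 ± 0.08). With LPS, Cd93 fell by 1.47 ± 0.19 (adjusted p = 5.99e-06) and 0 rose, where 8.05% of all genes fell and 8.3% rose. In LPS+MP against LPS, Cd93 fell again (-1.75 ± 0.19, adjusted p = 3.89e-06), as did Itgam, a subunit of complement receptor 3, from 1087 ± 74.3 to 484 ± 18.3 CPM (-1.16 ± 0.08, adjusted p = 3.53e-08). These were 2 of the 8, and 0 rose, where 3.89% of all genes fell and 0.63% rose. Of 5 regulators tested, Clu, the clusterin gene, rose with LPS (1.05 ± 0.188 to 3.37 ± 1.66 CPM; 1.01 ± 0.28, adjusted p = 0.00593). It did not pass with quantile normalization (0.87), or without control replicate 1 (0.93), LPS replicate 1 (0.83) or LPS replicate 3 (0.82).

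Acute phase genes beyond the members rose in part. Of 35 on the list 11 were tested, 4 of them rose with MP and 7 with LPS, and 1 fell with LPS. Over all genes 1.82% rose with MP, and 8.3% rose and 8.05% fell with LPS. The counts of the list include Saa3, Lcn2 and Cp, and its median was 0.52 with MP and 2.40 with LPS. Il1rn, the interleukin 1 receptor antagonist gene, rose with MP (14.5 ± 0.839 to 47.9 ± 5.43 CPM; 1.65 ± 0.09, adjusted p = 2.5e-09) and with LPS (4.53 ± 0.09, adjusted p = 1.57e-15). Slpi, a secreted protease inhibitor gene, rose by 1.39 ± 0.13 with MP (adjusted p = 1.5e-06) and by 4.23 ± 0.13 with LPS (adjusted p = 5.77e-13). Their levels in LPS+MP, 458 ± 18.7 and 433 ± 14.5 CPM, were above 358 ± 27.4 and 335 ± 71.9 in LPS but short of the size threshold. Hp, haptoglobin, was the 1 gene of the list that fell in LPS+MP against LPS, where 3.89% of all genes fell. It went from 5.65 ± 3.91 to 1.07 ± 0.935 CPM (-1.56 ± 0.40, adjusted p = 0.00738). Its means without LPS were 0.0982 CPM in control and 0.267 in MP, so it passed the filter of 1 CPM only through libraries with LPS. The metallothionein gene Mt1 fell with LPS, from 409 ± 22.1 to 160 ± 19.3 CPM (-1.35 ± 0.10, adjusted p = 1.42e-08).

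**Figure D4:**
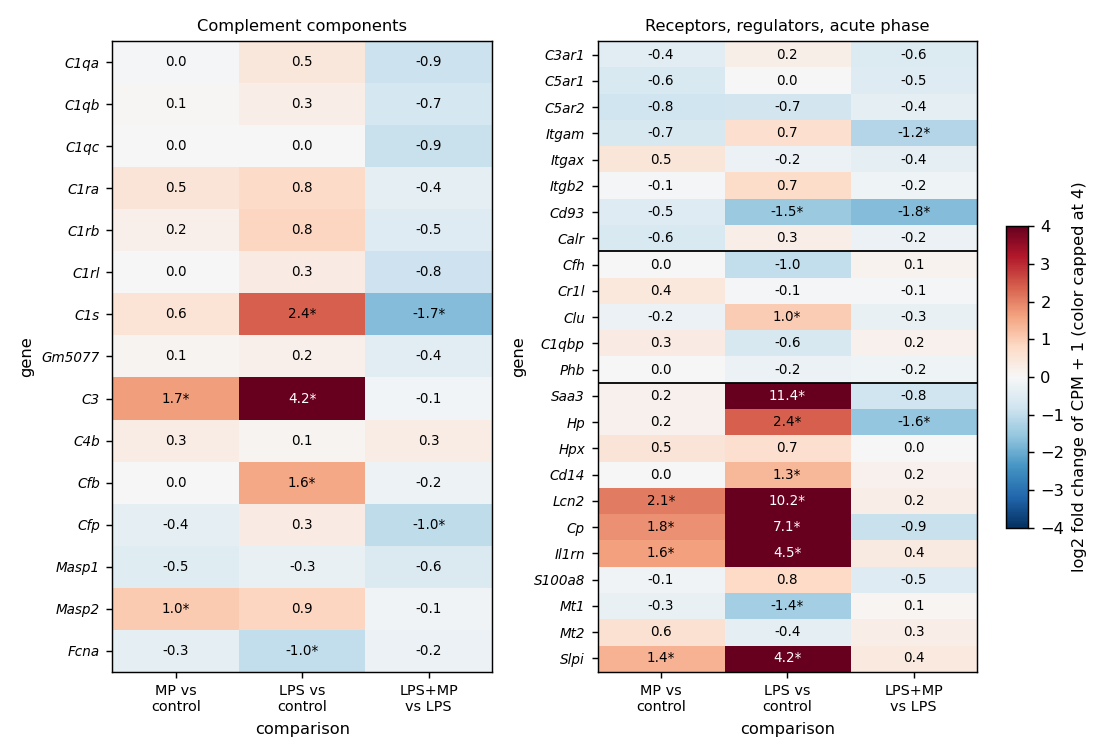
Log2 fold change of CPM + 1 for the tested complement components (left), and for complement receptors, complement regulators and acute phase genes (right, top to bottom), in 3 comparisons. Stars mark calls. The column of LPS+MP against LPS holds no called rise, while C1s, Cfp, Itgam, Cd93 and Hp are called lower there.

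The acute phase inducers called in the step from LPS to LPS+MP were all higher, while the median of their list was 0.08. Of 20 inducers and transcription factors tested, 13 rose and 1 fell with LPS, and 4 rose and 0 fell in LPS+MP against LPS. Over all genes these shares were 8.3% and 8.05% with LPS, and 0.63% and 3.89% in LPS+MP against LPS. The 4 genes were Tnf (464 ± 44.0 to 1028 ± 62.5 CPM; 1.15 ± 0.09, adjusted p = 9.8e-08), Osm (1.35 ± 0.12, adjusted p = 4.91e-07), Lif (2.71 ± 0.26, adjusted p = 1.26e-06) and Il6 (1.05 ± 0.16, adjusted p = 0.000155). Il6 lost its call with quantile normalization (0.97) and without LPS replicate 3 (0.95). Short of the size threshold, Il1b (-0.32 ± 0.10, adjusted p = 0.0256) and Il6ra (-0.98 ± 0.11, adjusted p = 5.79e-06) were lower. Cebpa, Cebpb, Nfkbiz, Rela and Rel were higher at an adjusted p under 0.05, also short of that threshold. Il1a stood at -0.07 ± 0.16. Saa3 and Cp were lower in the same comparison, as given above. With MP alone 3 rose, where 1.82% of all genes did. They were Nfkbiz, a nuclear NF-kB cofactor that Lcn2 transcription is known to need (1.23 ± 0.10, adjusted p = 1.5e-07), Cebpa (1.39 ± 0.16, adjusted p = 9.5e-06) and Osm (1.01 ± 0.12, adjusted p = 1.04e-05). Osm missed the size threshold with median-ratio scaling (0.97), and without control replicate 2 (0.93), MP replicate 1 (0.97) or MP replicate 2 (0.97).

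Receptors and targets of the member proteins changed in both directions. Fpr2, a formyl peptide receptor gene whose product binds serum amyloid A, rose with LPS from 0.0356 ± 0.0244 to 70.6 ± 10.8 CPM (6.10 ± 0.14, adjusted p = 1.8e-14). In LPS+MP it fell to 28.1 ± 4.30 CPM (-1.30 ± 0.14, adjusted p = 4.87e-06), and Fpr1, a related receptor gene, fell from 59.7 ± 11.4 to 14.1 ± 2.51 (-2.00 ± 0.16, adjusted p = 1.55e-07). Fpr2 and Saa3 were thus both lower in LPS+MP than in LPS, Saa3 short of the size threshold. Like Saa3, both Fpr genes passed the filter of 1 CPM only through libraries with LPS. Slc22a17, a lipocalin 2 receptor gene, lay between 21.1 and 25.1 CPM in the 4 group means. Slc40a1, ferroportin, the iron exporter that ceruloplasmin serves, fell with LPS from 131 ± 9.78 to 30.3 ± 6.74 CPM (-2.10 ± 0.11, adjusted p = 2.82e-10) while Cp rose.

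Around Serpinb2, the plasminogen activators were also measured. Plau, urokinase, fell with LPS from 386 ± 17.3 to 62.0 ± 7.57 CPM (-2.62 ± 0.09, adjusted p = 2.25e-12). With MP alone Plat, tissue plasminogen activator, fell by 1.30 ± 0.19 (adjusted p = 9.55e-05), while Serpinb2 was at or near 0. Of the 15 serpin and plasminogen genes tested, 4 rose and 3 fell with LPS, where 8.3% and 8.05% of all genes did. With MP 0 rose and 3 fell, where 1.82% and 1.85% of all genes did. In LPS+MP against LPS 0 were called by limma, against 4.52% of all genes in either direction. There 9 of the 15 were at an unadjusted p under 0.05. At an adjusted p under 0.05 whatever their size were 8, against 35.2% of all genes.

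The genes whose pattern over the 12 libraries was most like each member's were ranked by Pearson r of log2(CPM + 1) among 2857 genes whose group means spanned over 1. The libraries fall into those with and those without LPS, which alone gives high values, so r is a description. Saa3 was most like Il1b (r = 0.9989), which went from 0.0886 CPM in control to 1448 in LPS and 1157 in LPS+MP, then Oas3, Znfx1, Socs3 and Syk. Of the 5 genes most like Serpinb2, 4 were shared with Saa3, namely Syk (0.9983), Znfx1, Il1b and Oas3. Lcn2 was most like Dgkh (0.9981) and Jak2 (0.9980), C3 like Lrrc8d (0.9972) and Snx10 (0.9968), and Cp like Emr1 (0.9966) and Bst1 (0.9957). For these genes the MP mean lay above control: Jak2 stood at 32.9 CPM in control and 54.2 in MP, and Snx10 at 62.5 and 93.9. Cfb was most like Samd9l and Gbp4 (both 0.9908), Gbp4 going from 0.350 CPM in control to 29.8 in LPS. Among the members, r was highest between Saa3 and Serpinb2 (0.998) and lowest between C3 and Cfb (0.923).

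Markers of other cell types that make these proteins were looked at in the same libraries. Of 10 hepatocyte markers 2 were in the table, Alb and Apoa2, with a sum of 1.01 to 18 CPM in control, 3.04 to 30.9 in MP, 5.41 to 7.66 in LPS and 7.65 to 62.4 in LPS+MP. Apoa2, an apolipoprotein gene, rose with LPS from 1.73 ± 0.909 to 6.17 ± 1.27 CPM (1.43 ± 0.24, adjusted p = 8.31e-05), and with LPS+MP against control to 9.9 ± 2.91 CPM (2.02 ± 0.24, adjusted p = 1.89e-06). Alb was uneven between libraries of the same group. The part of hepatocyte RNA in the values of the 6 genes was not tested. Of 10 neutrophil markers 3 were in the table, Camp, Mmp8 and Csf3r, summing to 43.3 to 46.5 CPM in control, 73.5 to 78.9 in MP, 167 to 178 in LPS and 82.2 to 87.1 in LPS+MP. Most of that sum was Csf3r, at 43.6 ± 1.53 CPM in control, 74.9 ± 2.84 in MP, 126 ± 1.27 in LPS and 78.3 ± 2.61 in LPS+MP. Elane, Mpo, Ltf and Ly6g were not among the genes of the table used here. Like Saa3 and Cp, the neutrophil sum was highest with LPS and lower with LPS+MP, as was Mmp8, a collagenase gene, at 46.8 ± 7.34 and 5.53 ± 1.59 CPM. Camp was not lower, at 0.981 ± 0.824 CPM in LPS and 1.05 ± 0.116 in LPS+MP. The part of neutrophil RNA in the values of Saa3 and Cp was not tested. The fibroblast and epithelial list had 1 of 9 markers in the table, Pdgfra, at 1.00 to 1.64 CPM in control and 7.67 to 10.8 in LPS. The lymphocyte and dendritic cell list had 1 of 10, Zbtb46, at 3.54 to 8.64 CPM in control and MP and 4.33 to 6.39 with LPS.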

How the data were processed

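The deposited table of 12 libraries was used, with groups and replicate numbers from the sample titles. The tools the authors name, per the submitters' processing notes, are TopHat2 2.1.1, Trimmomatic 0.36, FastQC 11.5, edgeR, DESeq2 and HTSeq, without order or role. Not given in the sources used here: build, annotation and strand setting. The deposited value columns are headed RPKM but were read as CPM, since they sum to 998867 to 999273 per library and show no division by length. A deposited column headed logCPM was read as log2 CPM over all libraries and served as a check: its difference from the log2 mean had an SD of 0.20, against 0.99 after multiplying by transcript length (GENCODE M21, 11655 transcripts matched). Depth per library is unknown, so no counting intervals are given. The design, which allowed for either unit, was applied to CPM.

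Genes reaching 1 CPM in at least 3 libraries were kept, removing 17. Like Saa3, Cfb and Serpinb2, the list genes Hp, Il1b, Fpr1 and Fpr2 passed only through libraries with LPS. The means of C1s without LPS were also under 1 CPM. In limma 3.58.1 (R 4.3.3), group means of log2(CPM + 1) were estimated over the 12 libraries using a variance trend, after the script had been tested on simulated data. There were 7 comparisons, all two-sided. List genes named are up to 4 called genes with the smallest adjusted p per comparison, or, failing any, the 2 with the highest means; for likeness, the 5 highest r, leaving out predicted genes and pseudogenes. Named outside this rule, after their values were seen, were Slc40a1, Slc22a17, Slpi and Mt1 with LPS, Itgax with MP, and the C1q genes. In LPS+MP against LPS the genes so named were Mmp8, Csf3r, Camp, Apoa2, Il1rn, Slpi, Il1a, Il1b, Il6ra, Cebpa, Cebpb, Nfkbiz, Rela and Rel. Members and lists were chosen with earlier results of these data known. List symbols were matched by name, then through GENCODE IDs, since the table holds older symbols (Emr1 for Adgre1). A few genes that the rule selects are not reported here.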

Additional observations from a re-analysis of the deposited data

Results flagged for a closer look

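For 3 genes the effect of microparticles differed between cells without and with LPS, by the interaction test in limma. The interaction was -2.72 for Cp, which went from 0.490 to 4.27 CPM without LPS and from 209 to 112 with it. It was -1.82 for Lcn2, which went from 0.170 to 3.96 CPM without LPS and from 1420 to 1685 with it. It was -1.81 for C3, which went from 95.8 to 311 CPM without LPS and from 1824 to 1673 with it. With a pseudocount of 0.1 the values were -3.80 for Cp, -3.65 for Lcn2 and -1.82 for C3, so the size for the first 2 depends on the pseudocount, as their control levels lie under 1 CPM. Without LPS replicate 2 they were -2.61, -1.87 and -1.82.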

How the results depend on the processing

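The 42 log2 fold changes of the 6 genes were recomputed under 626 alternatives, of which 617 kept the direction and the call, 0 lost a call, 7 gained one (all Saa3, in LPS+MP against LPS or the interaction) and 2 reversed a value that was not called: Cfb with quantile normalization, at 0.07 in LPS+MP against LPS and 0.03 in the interaction. Phb, an uncalled regulator gene, stood at -0.03 with MP and ranged from -0.10 to 0.04 when 1 library was left out, with 0.02 on dropping control replicate 1 and 0.04 on dropping MP replicate 1. In LPS+MP against LPS the count of member genes called was 0, and became 1 with quantile normalization and 2 with no fold threshold. With no fold threshold the calls over all genes came to 4570 (MP), 7297 (LPS) and 7786 (LPS+MP) against control, 4138 for LPS+MP against LPS, 6527 for LPS+MP against MP, 6573 for LPS against MP and 2583 for the interaction. With a pseudocount of 0.1, LPS+MP against LPS gave 807 calls in place of 531. Quantile normalization moved the share of calls that were higher from 13.9% to 27.4% in LPS+MP against LPS and from 21.7% to 38.7% in the interaction, and the median of all genes from -0.14 to -0.02 in LPS+MP against MP and from -0.10 to 0.01 in LPS+MP against control; median-ratio scaling moved it from -0.12 to -0.01 in LPS against MP. The filter at 5 CPM removed Cfb. The replicate numbers did not pair the libraries: over 18 pairs of the same number the residual correlation was -0.247 to 0.158 (median 0.018), and the library with the highest correlation carried the same number for 3 of 12. A replicate block gave 431 calls with MP, as without it, and changed no call of the 6 genes. Hp in the interaction (-1.74, adjusted p = 0.0394) lost its call in 13 of 18 alternatives. One alternative was chosen after seeing the data: dropping LPS replicate 2 where LPS-only cells are not compared. Unknown depth limits what can be said of values near 0.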

Other observations

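The 3 chains of C1q, the recognition protein of the classical pathway, were abundant in all groups and were lower together in LPS+MP than in LPS. They were singled out after their values were seen. C1qa stood at 443 ± 47.1 CPM in control, 432 ± 71.4 in MP, 621 ± 151 in LPS and 332 ± 14.4 in LPS+MP. The difference of LPS+MP from LPS was -0.87 ± 0.15 for C1qa (adjusted p = 0.000379), -0.69 ± 0.13 for C1qb (adjusted p = 0.000953) and -0.89 ± 0.12 for C1qc (adjusted p = 4.21e-05), each short of the size threshold (limma, n = 3 libraries a group). Without LPS replicate 2, C1qa (-1.08) and C1qc (-1.05) passed it.

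Alb, the albumin gene and a hepatocyte marker, was uneven between libraries of the same group. Its values in replicates 1 to 3 were 0, 15.3 and 0 CPM in control, 13.4, 0 and 26.1 in MP, 0.101, 0.0324 and 0.0247 in LPS and 0.0405, 49.2 and 0.00479 in LPS+MP.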
